A study of Mus musculus with 10 samples.

Results

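The collagens, laminins and matrix genes described here were 70 of the 13837 genes with values in young mouse kidney. The rule takes symbols and no measured values, and covers every gene named as a collagen chain, a laminin chain, a TIMP, LTBP, LOXL or ADAMTS, together with Fn1, Fbn1, Sparc, Dcn, Lum, Bgn, Nid1, Nid2, Hspg2, Lox and Tgfbi; Postn was not analysed here. Of the 70, 66 were tested, since they reached 10 normalized counts in 5 or more mice. RNA was read in whole kidneys of 3-month-old C57BL/6 mice on standard chow, 5 labelled RagC S74N (+/+), called Rragc+/+ below, and 5 labelled RagC S74N (KI/+), called Rragc S74N/+, with 1 library for each mouse. The knock-in was made with Cas9 and a repair oligonucleotide that also holds silent changes. It replaces serine by asparagine in the nutrient-sensing GTPase RagC, holds it in its active GDP-bound form, and is carried by all cells on 1 of the 2 alleles. The labels do not give the sex of the mice, and no further allele or agent is named for either group. Ddx3y, a gene of the Y chromosome, was read at 317 to 478 normalized counts in every kidney of both groups, which marks them as male.

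Basement membranes are thin sheets beneath epithelia and around vessels, built from networks of laminin and collagen IV that nidogens and perlecan join. In the kidney they carry the tubules and form the glomerular filter, where the chains of Col4a3, Col4a4 and Col4a5 make up the mature network and faults in them cause Alport syndrome. Interstitial matrix lies between the tubules, is made largely by fibroblasts and holds fibril-forming collagens, proteoglycans and fibronectin, and its excess is called fibrosis. RagC passes the presence of nutrients to mTORC1, the kinase complex that drives growth and holds back TFEB, a regulator of lysosomal genes.

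Each library held between 6501552 and 7996087 reads on genes. QuantSeq reads 1 tag near the 3′ end of each transcript, so the normalized counts below are not scaled by length and levels of different genes can be set side by side only as tags. The targeted gene, Rragc, averaged 285 ± 42.3 normalized counts in Rragc+/+ mice and 216 ± 23.6 in Rragc S74N/+ mice (SD, n = 5 each; limma, adjusted p = 0.0678; DESeq2 on the recovered reads, adjusted p = 0.0312). Tags at its 3′ end do not read the altered codon in exon 1, so they do not check the labels. Markers of the kidney were present in every library, with a summed count of 38073 to 47406 for 6 proximal tubule genes. Between genotypes 1 of these 6 was called higher and 2 lower (limma), beside 1.67% and 2.02% of all genes. Rragc S74N/+ replicate 5 stood apart in matrix genes. Its library code also lay apart, ending in 66 where the others ended in 38 to 40 or 53 to 58. What that gap stands for is not given in the sources used here. This mouse had the highest value of the 10 mice in 27 of the 66 tested matrix genes (40.9%), where it was highest in 13.1% of all genes tested and each other mouse was highest in 3 to 7 matrix genes. In the same mouse the summed count of 9 fibroblast markers was 1384, against 880 to 1075 in the other Rragc S74N/+ and 912 to 1063 in Rragc+/+ kidneys. Its 7 mural cell and myofibroblast markers summed to 1011, against 701 to 732 and 581 to 640, and were thus higher in every Rragc S74N/+ than in every Rragc+/+ kidney, although 0 of the 7 genes passed the test (limma) and 4 had an unadjusted p under 0.05. Its 7 markers of the distal tubule and collecting duct summed to 14622, the lowest of all, against 20707 to 22148 and 29701 to 38620, although it was the highest mouse in 2 of the 7. Between genotypes 4 of these 7 genes were below 0, 3 of them called lower beside 2.02% of all genes, and 3 were above 0 (limma). Its 9 endothelial markers summed to 2722, also the lowest, against 2884 to 3572 and 3433 to 3676, with 8 of the 9 genes below 0 between genotypes and 0 called (limma; 2 at an unadjusted p under 0.05). Its 5 mesangial markers summed to 861, against 514 to 593 and 441 to 558. The sums hold only markers with a value, which were 7 of 8 for mural cells and myofibroblasts. The part of these markers in the results below was not tested. The main values that rest on this mouse are therefore given with and without it.

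Matrix genes as a group did not move one way. Of the 66 tested, 4 passed the threshold of 0.05 on the adjusted p (limma), which is 6.06%, while 3.69% of all 13197 genes tested passed. Only Col27a1 was higher in Rragc S74N/+ kidneys, where 1.67% of all genes were higher, and Col14a1, Col6a6 and Col8a1 were lower, where 2.02% of all genes were. In bulk tissue fewer cells of a type and less RNA per cell cannot be told apart. At an unadjusted p under 0.05 the count was 11 of 66 matrix genes (16.7%), with 15.4% of all genes. The groups did not overlap in 2 matrix genes, Col14a1 and Col6a6 (3.03%), against 5% of all genes tested. The fold changes were split evenly, with 33 above and 33 below 0, and their median on the log2 scale was 0.004, beside 0.0005 for all genes. Without Rragc S74N/+ replicate 5 they were no longer even, with 24 above and 42 below 0 and a median of -0.06, beside 0.001 for all genes. The 3 called genes of interstitial matrix were 3 of 21 tested in that class, Col8a1 was 1 of 3 collagens outside the main classes, and 0 of 23 basement membrane genes and 0 of 19 matrix regulators passed (limma), with 2 and 5 at an unadjusted p under 0.05.

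**Figure D1:**
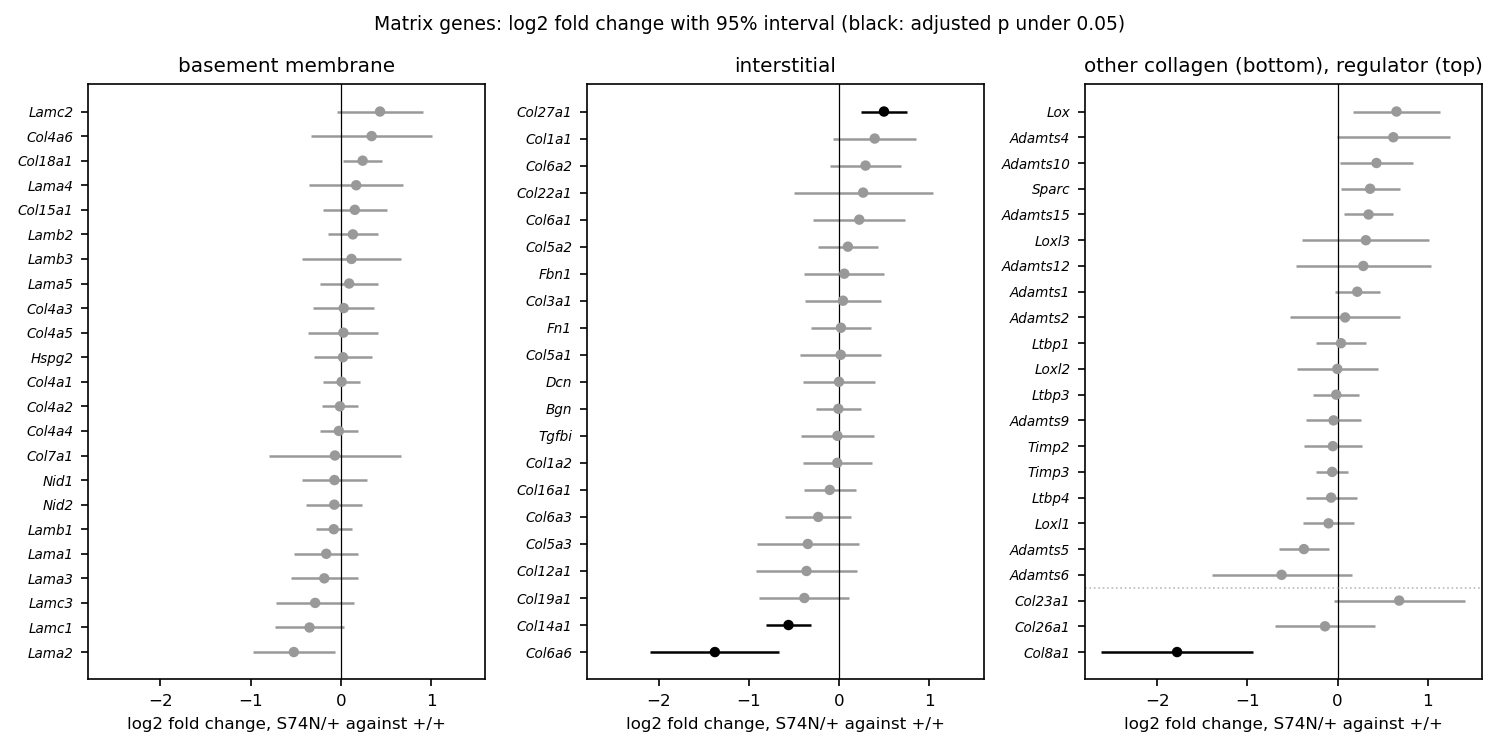
Log2 fold change (Rragc S74N/+ against Rragc+/+, n = 5 each) of the 66 tested matrix genes on the horizontal axis, with 95% intervals as bars, in 3 panels by class; black marks genes past the limma threshold. Most intervals cross 0, and the 4 black genes run from Col8a1 at -1.78 to Col27a1 at 0.50.

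Col14a1 encodes a collagen that sits on the surface of fibrils and bears on their spacing. Its normalized counts in Rragc+/+ replicates 1 to 5 were 156, 156, 147, 185 and 169.8, and in Rragc S74N/+ replicates 1 to 5 they were 91.1, 106, 117, 109.7 and 128. Every Rragc S74N/+ kidney was below every Rragc+/+ kidney, with no mouse far from its group. The mean fell from 163 ± 15.0 to 110.4 ± 13.8 (SD, n = 5 each), a log2 fold change of -0.56 (SE 0.12, 95% interval -0.81 to -0.31, limma adjusted p = 0.00999). It passed in each of the 10 fits that left out 1 mouse, with adjusted p from 0.00601 to 0.0419 (limma). Among the 7 mice with library codes of the second run alone (3 against 4) the change was -0.53, with an adjusted p of 0.0613 (limma).

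Col6a6 encodes a chain of collagen VI, the collagen of beaded filaments around cells. It was read at 28.3, 34.7, 18.1, 20.4 and 31.0 normalized counts in Rragc+/+ replicates 1 to 5, and at 17.1, 6.50, 13.7, 10.9 and 3.89 in Rragc S74N/+ replicates 1 to 5. The groups stood close at their edges but did not overlap, and the lowest value was that of Rragc S74N/+ replicate 5, the mouse that was high in many other matrix genes. On the log2 scale the change was -1.38 (SE 0.34, 95% interval -2.09 to -0.66, limma adjusted p = 0.0294). With 1 mouse left out at a time, the call was lost in 5 of 10 fits, those without Rragc+/+ replicate 1, 2 or 5 or Rragc S74N/+ replicate 2 or 5, with the highest adjusted p at 0.0939 (limma). The other chains of collagen VI did not share this direction as a set. Col6a1 was at 0.22 (95% interval -0.29 to 0.73), Col6a2 at 0.29 (-0.11 to 0.69) and Col6a3 at -0.23 (-0.60 to 0.13) on the log2 scale, and 0 of these 3 passed (limma, adjusted p from 0.521 to 0.742, 0 at an unadjusted p under 0.05). Rragc S74N/+ replicate 5 was the highest of its group in all 3, and without it they were at 0.01, 0.14 and -0.38.

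Col8a1 encodes a short-chain, network-forming collagen known from vessel walls and the cornea. Rragc+/+ kidneys held 22.8, 27.6, 40.8, 26.8 and 34.2 normalized counts. Rragc S74N/+ replicates 1 to 4 held 6.64, 5.58, 6.31 and 3.95, and replicate 5 held 31.1. Thus 4 of the 5 Rragc S74N/+ kidneys lay far below all Rragc+/+ kidneys and the remaining one lay among them, so that the groups overlap. The log2 fold change was -1.78 (SE 0.40, 95% interval -2.62 to -0.94, limma adjusted p = 0.0157), and without that mouse it was -2.24 (limma, adjusted p = 7.25e-05). Without Rragc+/+ replicate 5 the gene did not pass (limma, adjusted p = 0.0535), and edgeR on the recovered reads gave an adjusted p of 0.0595.

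Col27a1 encodes a fibril-forming collagen best known from cartilage. Its normalized counts were 296, 366, 329, 286 and 361 in Rragc+/+ replicates 1 to 5 and 601, 455, 445, 356 and 477 in Rragc S74N/+ replicates 1 to 5. Only Rragc S74N/+ replicate 4 fell within the range of the Rragc+/+ mice. The mean rose from 328 ± 36.5 to 467 ± 88.3 (SD, n = 5 each), a log2 fold change of 0.50 (SE 0.12, 95% interval 0.24 to 0.75, limma adjusted p = 0.0290). With 1 mouse left out at a time, the gene did not pass in 6 of 10 fits, those without Rragc+/+ replicate 1, 3 or 4 or Rragc S74N/+ replicate 1, 2 or 5, with adjusted p up to 0.0946 (limma). In the second run of library codes alone, 0 of the 66 matrix genes passed (limma), where 346 of all genes tested (2.62%) did. At an unadjusted p under 0.05 there were 9 matrix genes (limma), and the share of all genes at that level was not computed for this run. Col6a6, Col8a1 and Col27a1 had log2 fold changes of -1.40, -1.88 and 0.41 there (limma, adjusted p = 0.102, 0.0857 and 0.107).

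**Figure D2:**
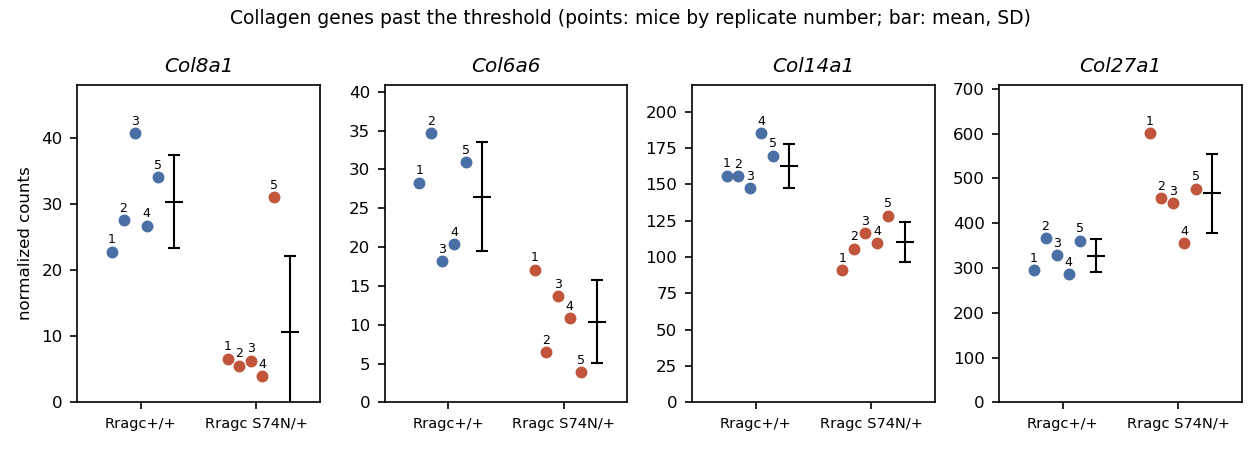
Normalized counts (vertical axis, from 0) of the 4 collagen genes past the threshold in each mouse, Rragc+/+ in blue and Rragc S74N/+ in red, numbered by replicate, with mean and SD as bars; the lower bar of Col8a1 is cut at 0. For Col14a1 and Col6a6 the groups are apart, for Col8a1 the red replicate 5 at 31.1 sits among the blue points, and for Col27a1 the red replicate 4 at 356 does.

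The RefSeq promoter windows of GRCm38.p6 held entries for 43 of the 70 matrix genes, among them Col6a6, Col8a1 and Col27a1. The 250 bases before the start of these 3 called genes are shown so that the letters upstream of the changed collagens can be read, at chr9:105828086-105828335 on the minus strand for Col6a6, chr16:57754738-57754987 on the minus strand for Col8a1 and chr4:63215162-63215411 on the plus strand for Col27a1. Capitals mark the GC box, GGGCGG or its reverse complement CCGCCC, the letters bound by Sp1.
Col6a6: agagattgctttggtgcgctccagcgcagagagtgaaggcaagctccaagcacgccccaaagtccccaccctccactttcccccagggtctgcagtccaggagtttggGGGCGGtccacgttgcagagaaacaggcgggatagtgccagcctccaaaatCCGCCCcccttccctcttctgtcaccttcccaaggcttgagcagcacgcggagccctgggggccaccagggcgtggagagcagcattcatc
Col8a1: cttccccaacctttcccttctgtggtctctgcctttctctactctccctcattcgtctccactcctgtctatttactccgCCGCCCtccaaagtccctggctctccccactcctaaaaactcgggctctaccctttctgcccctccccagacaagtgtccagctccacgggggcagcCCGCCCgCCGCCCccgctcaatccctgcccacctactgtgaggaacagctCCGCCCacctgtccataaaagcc
Col27a1: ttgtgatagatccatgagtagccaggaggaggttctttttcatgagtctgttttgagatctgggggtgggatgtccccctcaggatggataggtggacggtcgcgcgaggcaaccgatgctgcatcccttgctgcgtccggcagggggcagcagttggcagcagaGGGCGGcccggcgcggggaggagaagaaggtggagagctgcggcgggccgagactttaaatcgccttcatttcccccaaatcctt
The GC box stood 2 times in the window of Col6a6, 4 times in that of Col8a1 and 1 time in that of Col27a1. It was found in 30 of the 47 windows of tested matrix genes (63.8%) and in 32.7% of all 32851 windows of this length. The letters CACGTG, the core of the element that TFEB binds, which read the same on both strands, were in 0 of the 47 windows and in 6.02% of all windows. The full set of windows was not limited to genes tested in these kidneys, so these shares come from unlike sets. What sets them apart was not tested.

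No basement membrane gene passed the threshold between the genotypes (limma). Among the 23 tested, 12 had a log2 fold change above and 11 below 0, from -0.52 to 0.43, with a median of 0.009. Without Rragc S74N/+ replicate 5 the split was 8 above and 15 below 0 and the median -0.03. The 95% interval lay within a 2-fold change either way in 22 of the 23, the exception being Col4a6, and in 11896 of all 13197 genes tested. That bound is wider than the called log2 fold changes of Col14a1 (-0.56) and Col27a1 (0.50), so it does not show equality. Summed over the class, the normalized count was 7240 ± 341 in Rragc+/+ and 7257 ± 522 in Rragc S74N/+ kidneys (SD, n = 5 each).

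Collagen IV, the scaffold of the sheet, showed no change that passed in any of its 6 chains (limma; 0 at an unadjusted p under 0.05). Col4a1 and Col4a2 form the network found in nearly all basement membranes. Col4a1 was read at 1194, 1026, 969.6, 1009 and 1089 normalized counts in Rragc+/+ replicates 1 to 5 and at 1059.5, 985, 1115, 898 and 1290.2 in Rragc S74N/+ replicates 1 to 5. The groups lay on top of each other, with a log2 fold change of 0.009 (95% interval -0.19 to 0.21), and Col4a2 was at -0.009 (-0.21 to 0.19). Of the chains of the mature glomerular network, Col4a4 was at 2199 ± 199 in Rragc+/+ and 2178 ± 305 in Rragc S74N/+ kidneys (SD, n = 5 each), with a log2 fold change of -0.02 (-0.23 to 0.19). Col4a3 held 232 ± 71.7 and 231 ± 27.6 (SD, n = 5 each; 0.03, -0.30 to 0.37), and Col4a5 held 42.4 ± 4.75 and 44.1 ± 11.1 (SD, n = 5 each; 0.03, -0.36 to 0.42). Podocytes make this network, and the summed count of 8 podocyte markers was 1303 to 1503 in Rragc+/+ and 1496 to 1670.4 in Rragc S74N/+ kidneys. Of the 8 genes 2 were called higher (limma), beside 1.67% of all genes, and 0 were called without Rragc S74N/+ replicate 5. Tags of Col4a4 outnumbered those of Col4a3 by 9.99 ± 2.41 times in Rragc+/+ and by 9.54 ± 1.85 times in Rragc S74N/+ kidneys (SD, n = 5 each), a ratio of 3′ tags and not of protein chains.

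Among 11 laminin chains, 5 were above and 6 below 0, with a median log2 fold change of -0.08. Lamb1, a beta chain of tubular and vascular laminins, was read most, at 1465 ± 133 in Rragc+/+ and 1392 ± 166 in Rragc S74N/+ kidneys (SD, n = 5 each; log2 fold change -0.08, 95% interval -0.27 to 0.12). Lamb2, the beta chain of the mature glomerular membrane, was at 271 ± 38.6 and 299 ± 55.9 (SD, n = 5 each; 0.13, -0.15 to 0.41), and its partner Lama5 was at 97.9 ± 11.9 and 106 ± 20.5 (SD, n = 5 each; 0.09, -0.22 to 0.41). Lamc1, the gamma chain most laminins share, was at 79.7 ± 10.4 and 63.9 ± 16.03 (SD, n = 5 each; -0.35, -0.72 to 0.03). Its log2 fold change was -0.43 without Rragc S74N/+ replicate 5 (limma, adjusted p = 0.282).

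The chain with the largest difference was Lama2, the alpha chain known from muscle and nerve. It was read at 84.0, 72.9, 49.9, 78.3 and 68.3 normalized counts in Rragc+/+ replicates 1 to 5 and at 29.4, 39.95, 71.5, 51.4 and 60.3 in Rragc S74N/+ replicates 1 to 5. The ranges overlapped, since Rragc S74N/+ replicates 3 to 5 lay above Rragc+/+ replicate 3. The log2 fold change of -0.52 (95% interval -0.97 to -0.07) had an unadjusted p under 0.05 and did not pass (limma, adjusted p = 0.237).

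The linkers of the sheet had log2 fold changes near 0 and did not pass (limma). Nid1, a nidogen that ties laminin to collagen IV, was at -0.07 on the log2 scale (95% interval -0.43 to 0.29), and Hspg2, which encodes perlecan, was at 0.02 (-0.30 to 0.35). Col18a1, the source of endostatin, was read at 531, 539, 456, 434 and 467 normalized counts in Rragc+/+ and at 529, 545, 561, 518 and 732 in Rragc S74N/+ replicates 1 to 5. Replicate 5 of Rragc S74N/+ stood above all others, while the other 4 overlapped the upper Rragc+/+ mice. Its log2 fold change was 0.24 (95% interval 0.02 to 0.46; limma, adjusted p = 0.260), and without replicate 5 it was 0.15 (adjusted p = 0.495).

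Interstitial matrix genes were as evenly split by sign but varied more between Rragc S74N/+ mice. Of the 21 tested, 10 had a log2 fold change above and 11 below 0, with a median of -0.002 and a range from -1.38 to 0.50. Without Rragc S74N/+ replicate 5 the count was 6 above and 15 below 0 and the median -0.12, beside 0.001 for all genes. The interval lay within a 2-fold change either way in 19 of the 21, beside 11896 of all 13197 genes tested.

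Collagen I and collagen III are the main fibrils of the interstitium. Col1a1 was read at 283, 276, 240.4, 224 and 229.6 normalized counts in Rragc+/+ replicates 1 to 5 and at 288, 267, 230.1, 294 and 729 in Rragc S74N/+ replicates 1 to 5. Apart from replicate 5, the Rragc S74N/+ mice lay at the level of the Rragc+/+ mice. The log2 fold change was 0.39 (95% interval -0.07 to 0.86; limma, adjusted p = 0.431) and dropped to 0.11 without that mouse (adjusted p = 0.753). Col1a2, the second chain of collagen I, was at -0.02 (-0.41 to 0.36), and at -0.20 without it. Col3a1 was read at 204, 186, 149, 216 and 189 in Rragc+/+ and at 180.2, 188, 148, 143 and 373 in Rragc S74N/+ replicates 1 to 5, again with 1 mouse above all others. Its log2 fold change of 0.04 (-0.38 to 0.46) became -0.19 without that mouse (limma, adjusted p = 0.560).

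Of the proteoglycans, decorin showed the same high mouse. Dcn, its gene, whose product coats collagen fibrils, was at 489, 450.0, 381, 464 and 472 normalized counts in Rragc+/+ and at 451, 395, 281, 447 and 818 in Rragc S74N/+ replicates 1 to 5. The high value of replicate 5 offset the lower ones, and the log2 fold change moved from -0.002 (95% interval -0.40 to 0.40) to -0.22 without it. Bgn, which encodes the related biglycan, was at 1139 ± 137 and 1144 ± 237 (SD, n = 5 each; log2 fold change -0.009, 95% interval -0.26 to 0.24). Its log2 fold change was -0.12 without Rragc S74N/+ replicate 5, the highest mouse at 1534.

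Fn1, which encodes fibronectin, was at 118 ± 26.4 and 118 ± 19.4 (SD, n = 5 each; 0.02, -0.31 to 0.35). Fbn1, the microfibril protein fibrillin, had a log2 fold change of 0.06 (-0.39 to 0.50) and Tgfbi, a secreted protein induced by TGF-β, one of -0.02 (-0.42 to 0.38). Of the 5 genes Dcn, Bgn, Fn1, Fbn1 and Tgfbi 0 passed, with 0 at an unadjusted p under 0.05 (limma). Without Rragc S74N/+ replicate 5 all 5 were below 0, with a median log2 fold change of -0.12, beside 0.001 for all genes. Among the 5 tested collagens of the fibril surface, to which Col14a1 belongs, 4 were below 0, with a median log2 fold change of -0.36 that became -0.11 without Rragc S74N/+ replicate 5.

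**Figure D3:**
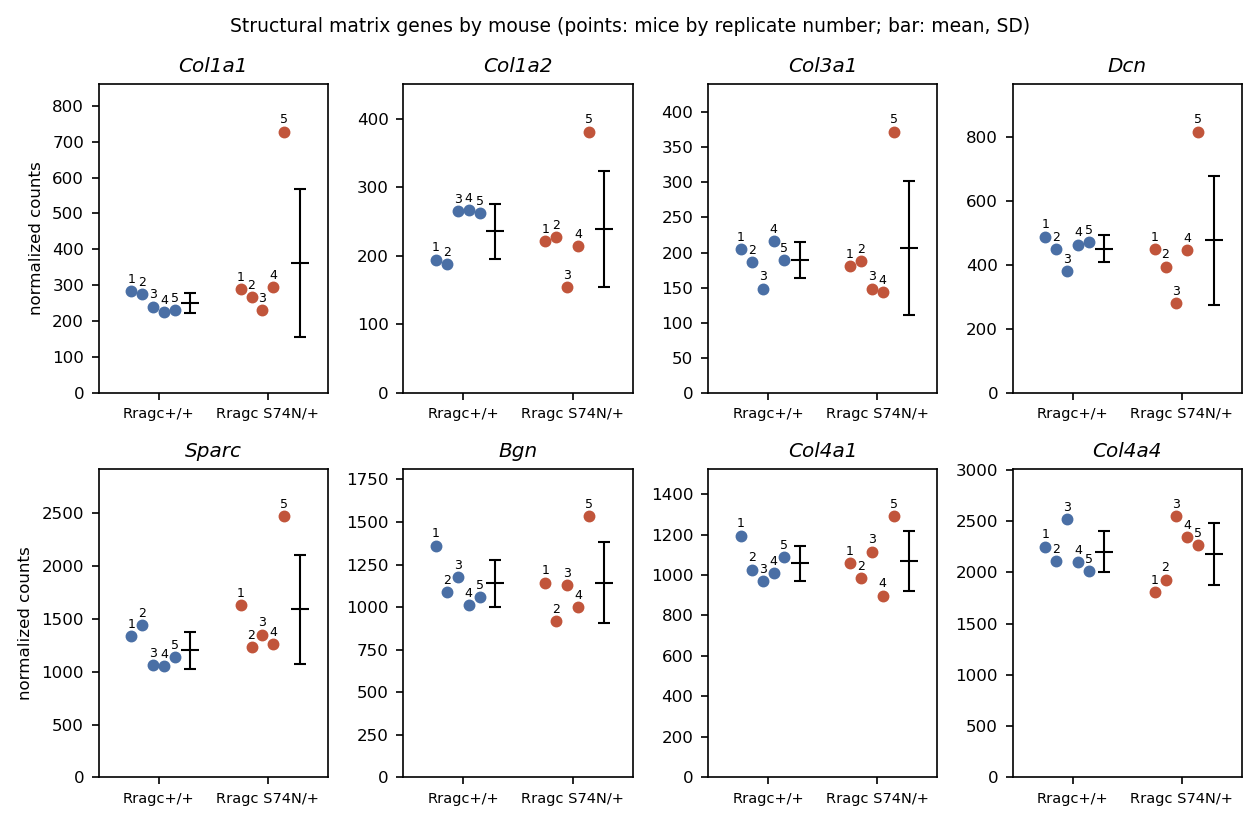
Normalized counts (vertical axes, from 0) of 8 structural matrix genes in each mouse, numbered by replicate, Rragc+/+ in blue and Rragc S74N/+ in red, with mean and SD as bars. Rragc S74N/+ replicate 5 is the highest point for Col1a1 (729), Col1a2 (381), Col3a1 (373), Dcn (818), Sparc (2473), Bgn (1534) and Col4a1 (1290.2) but not for Col4a4.

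Regulators of the matrix had 10 log2 fold changes above and 9 below 0, with a median of 0.04 and a range from -0.62 to 0.65. Without Rragc S74N/+ replicate 5, which was the highest mouse in 9 of these 19 genes, 8 were above and 11 below 0 and the median was -0.06. Timp3, an inhibitor of metalloproteases that binds to the matrix, was the most read of all 70 genes, at 12655 ± 1214 in Rragc+/+ and 12099 ± 393 in Rragc S74N/+ kidneys (SD, n = 5 each). Its log2 fold change was -0.06 (95% interval -0.23 to 0.11). Timp2, a related inhibitor, was at 581 ± 117 and 563 ± 135 (SD, n = 5 each; -0.05, -0.37 to 0.27). Timp1 was not analysed here.

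Lox encodes lysyl oxidase, which cross-links collagen and elastin. It was read at 36.5, 25.8, 14.7, 24.7 and 25.6 normalized counts in Rragc+/+ and at 31.3, 39.02, 34.7, 39.5 and 54.5 in Rragc S74N/+ replicates 1 to 5. All but Rragc+/+ replicate 1 lay below all Rragc S74N/+ mice. Its log2 fold change was 0.65 (95% interval 0.17 to 1.14) and did not pass (limma, adjusted p = 0.151), also not without replicate 5 (0.54, adjusted p = 0.308).

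Sparc, a collagen-binding glycoprotein, was read at 1337, 1441, 1063, 1051 and 1138 normalized counts in Rragc+/+ and at 1634, 1237, 1352, 1261 and 2473 in Rragc S74N/+ replicates 1 to 5. Rragc S74N/+ replicates 2 to 4 overlapped the Rragc+/+ mice. Its log2 fold change was 0.36 (95% interval 0.03 to 0.69; limma, adjusted p = 0.263) and 0.19 without replicate 5.

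The ADAMTS enzymes, secreted metalloproteases that cut proteoglycans and procollagens, differed in sign. Adamts5, an aggrecan-cutting enzyme, was at 152, 138, 181, 166 and 143 normalized counts in Rragc+/+ and at 90.1, 137, 116, 142 and 121 in Rragc S74N/+ replicates 1 to 5. The groups met only at the edge, with Rragc S74N/+ replicate 4 above Rragc+/+ replicate 2. The log2 fold change was -0.37 (95% interval -0.65 to -0.09; limma, adjusted p = 0.158), and the gene passed when the run of library codes was a covariate (-0.43, limma adjusted p = 0.0361), a setting in which 6.3% of all genes passed. Adamts1, a related enzyme, was at 0.22 (-0.03 to 0.47), and Adamts10, which bears on microfibrils, at 0.43 (0.02 to 0.84; limma, adjusted p = 0.292). Over the 9 tested members of this family the median was 0.22, with 6 above and 3 below 0 and 0 called (limma; 3 at an unadjusted p under 0.05).

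The classes were also set against each other in each mouse, as the mean over a class of the log2 deviation of each gene from its mean over the 10 mice. The difference between the medians of the basement membrane and interstitial log2 fold changes was 0.01, and 0.09 without Rragc S74N/+ replicate 5. Its sign was not fixed, since it was below 0 in 5 of 12 other settings, among them edgeR (-0.03) and DESeq2 (-0.03), and in 5 of 10 fits with 1 mouse left out, down to -0.12 without Rragc S74N/+ replicate 3. The interstitial score was -0.03 to 0.09 in Rragc+/+ kidneys, a narrow range. In Rragc S74N/+ replicates 1 to 5 it was 0.05, -0.19, -0.27, -0.11 and 0.33, so that 3 mice lay below and 1 above all Rragc+/+ mice. The basement membrane score of Rragc+/+ mice lay between -0.12 and 0.09. Rragc S74N/+ replicates 1 to 4 lay between -0.11 and 0.01, and replicate 5 was at 0.21. The SD of the interstitial score was 0.24 in Rragc S74N/+ and 0.04 in Rragc+/+ kidneys, and 0.13 in Rragc S74N/+ without replicate 5. Interstitial minus basement membrane scores averaged 0.04 ± 0.10 in Rragc+/+ and -0.04 ± 0.18 in Rragc S74N/+ kidneys (SD, n = 5 each), so the means lay closer together than the mice within either group.

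**Figure D4:**
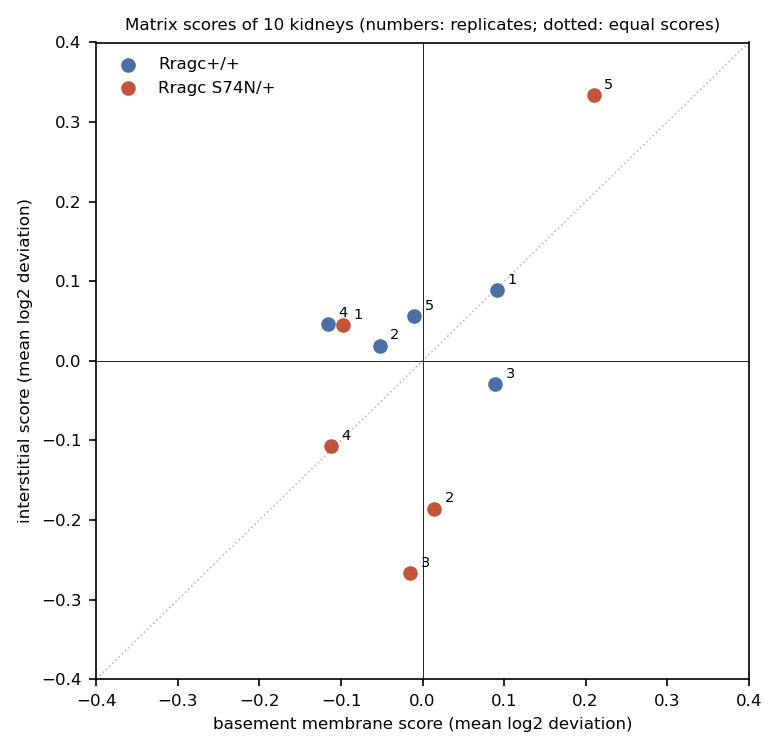
Basement membrane score (horizontal axis) against interstitial score (vertical axis), each the mean log2 deviation over the tested genes of the class, for the 10 kidneys, numbered by replicate, Rragc+/+ in blue and Rragc S74N/+ in red; the dotted line marks equal scores. Rragc+/+ kidneys lie near the centre, Rragc S74N/+ replicates 2 to 4 lie low on the interstitial axis (-0.11 to -0.27), and Rragc S74N/+ replicate 5 lies highest on both axes (0.21 and 0.33).

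Other genes of matrix biology were read from 6 lists, which were chosen with earlier results of these data known. Over these lists 6 genes passed in all (limma), while 3.69% of all genes did. Because of that choice, the counts per list do not test whether such genes change more often than others. Of 12 other basement membrane genes 2 passed. Egfl6, a secreted basement membrane protein with EGF-like repeats, was at 120 ± 31.0 in Rragc+/+ and 15.1 ± 2.39 in Rragc S74N/+ kidneys (SD, n = 5 each), a log2 fold change of -2.88 (95% interval -3.30 to -2.46; limma, adjusted p = 5.63e-08) that passed without any single mouse. Frem1, of the Fraser complex beneath epithelia, was at 20.2 ± 5.196 and 9.14 ± 2.104 (SD, n = 5 each; log2 fold change -1.05, limma adjusted p = 0.0456), a call lost in 9 of 10 fits with 1 mouse left out.

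Of 20 other interstitial genes 1 passed, Spp1, which encodes osteopontin (-0.53; limma, adjusted p = 0.0245; lost in 5 of 10 such fits). Of 18 collagen synthesis enzymes 1 passed, Pcolce, an enhancer of the enzyme that trims procollagen ends, at 428 ± 43.9 and 298 ± 36.7 (SD, n = 5 each; -0.52, limma adjusted p = 0.00598), and it passed without any single mouse. Of 15 matrix proteases and inhibitors 2 passed and 13 were below 0, with a median log2 fold change of -0.21. Serpine2, an inhibitor of serine proteases that is also on the list of mesangial markers, was higher (0.62; limma, adjusted p = 0.0288; lost in 5 of 10 fits), and Ctsl, the lysosomal protease cathepsin L, was lower (-0.38; limma, adjusted p = 0.0314; lost in 7 of 10 fits). Of 17 matrix receptors and 17 genes of the TGF-β pathway, 0 passed (limma), with 3 and 2 at an unadjusted p under 0.05. Without Rragc S74N/+ replicate 5, 1 receptor gene and 0 genes of the TGF-β pathway passed (limma), beside 441 of all 13197 genes. DESeq2 on the recovered reads called 8 genes over the 6 lists, and 648 of all genes (4.91%).

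The 4 matrix genes that were too low to be tested were Lum, Col8a2, Col13a1 and Adamts16. Lum, which encodes the proteoglycan lumican, was read at 0 to 11.9 normalized counts in Rragc+/+ and 5.25 to 26.3 in Rragc S74N/+ kidneys. Adamts16 was at 1.78 to 10.7 and 9.29 to 12.7, Col8a2 at 2.74 to 9.61 and 5.58 to 14.2, and Col13a1 at 0 to 8.89 and 5.93 to 13.0. The ranges overlapped in all 4 genes. When no filter was applied, their log2 fold changes were 0.87 to 1.17, all higher in Rragc S74N/+ kidneys. Of the 4 genes 0 passed in that fit (limma, adjusted p from 0.246 to 0.415, 3 at an unadjusted p under 0.05). The share of all genes at that level was not computed without the filter, and values this low rest on few reads.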

How the data were processed

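Kidney RNA of 10 mice was analysed, 1 library each, grouped by the genotype label. The replicate numbers were assigned here within each group and are not in the labels. The authors made QuantSeq 3′ libraries, aligned reads to GRCm39 with TopHat2 2.0.10 and Bowtie 1.0.0, counted them by strand with HTSeq 0.6.1 on GENCODE, and deposited a signal per gene, the count divided by a size factor. Multiple hits were allowed, so genes with near-identical copies are uncertain. In every library 100% of values were whole reads after multiplication by the size factor (tolerance 0.01), and 0 columns were unmatched. No gene averaged under 5.64 normalized counts.

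Values were tested as log2(value + 1) with limma 3.58.1 in R 4.3.3 (variance trend, two-sided, Benjamini-Hochberg over 13197 genes, at least 10 in at least 5 mice); this scale understates changes of low genes. The count models edgeR 4.0.16 and DESeq2 1.42.0, run on recovered reads, were alternatives. Scripts were tested on simulated data. Library codes fall into a first run (2 Rragc+/+, 1 Rragc S74N/+) and a second (3 and 4). Their last 2 digits were 38 to 40 in the first, and 53 to 58 and 66 in the second. The code ending in 66 was that of Rragc S74N/+ replicate 5 alone, and neither fit by run sets that library apart. The first run alone is too small to test, and what the runs stand for is not given in the sources used here. Nothing in the labels says whether mice shared a litter or cage.

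Matrix genes, classes and lists were chosen with earlier results of these data known. Named are all members past the threshold, the 3 largest changes per class with a mean of at least 50, and a list of structural genes; collagen VI, Col4a6 and the untested genes were added after their values were seen.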

Additional observations from a re-analysis of the deposited data

Results flagged for a closer look

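Within each genotype, the gap between the highest or lowest mouse and its neighbour was compared with Dixon's critical value of 0.71, for the named genes and class scores, 74 groups in all. The gap exceeded it in 5 groups, with 3.7 given by chance, and in 4 of the 5 the mouse was Rragc S74N/+ replicate 5, as the highest of its group. The gap, as a share of the range of the group, was 0.798 for Col18a1 (732 normalized counts), 0.873 for Col1a1 (729), 0.807 for Col3a1 (373) and 0.901 for Col8a1 (31.1). These 4 values come from the same library and are not independent, and chance alone passes this limit in about 1 group in 20. The fifth was Timp3 in Rragc+/+ kidneys, with a share of 0.800 for replicate 3 at 14782.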

How the results depend on the processing

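Under 22 alternatives, 10 of which left out 1 mouse, the named genes had 719 of 852 values with the same sign and side of the threshold; 54 lost a call, 2 gained one (Adamts5 with the covariate and Rragc with DESeq2) and 77 changed sign, the last in 15 genes whose log2 fold change was at most 0.07 in size. Matrix genes past the threshold numbered 2 when a mean of 50 was required (fewer genes tested), 1 in limma without the trend and 0 in the second run of library codes alone. Over all genes 291 passed without the trend, 832 with the run of codes as a covariate, 346 in the second run and 648 with DESeq2, beside 487, and of the other matrix lists 3 passed without the trend and 2 in the second run. With 1 mouse left out, 295 to 466 of all genes, 2 to 4 matrix genes and 2 to 7 genes of the other lists passed; the lowest count over all genes was without Rragc+/+ replicate 5, and without replicate 4 it was 310. The causes of the other changes were not tested.

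Signs changed with quantile normalization (-0.028 for Col4a1 and 7.9e-04 for Tgfbi), with edgeR on the recovered reads (0.0012 for Bgn, 0.026 for Col1a2, -0.0055 for Col4a3, 0.080 for Dcn and -0.0091 for Fn1), with DESeq2 (0.0054 for Bgn, 0.027 for Col1a2, -0.0055 for Col4a3, 0.084 for Dcn and -0.0030 for Fn1), with the run of codes as a covariate (0.014 for Bgn, 0.034 for Col4a2, -0.033 for Col4a3, 0.011 for Dcn, -0.0017 for Hspg2 and 0.045 for Tgfbi) and in the second run alone (0.055 for Bgn, 0.11 for Col4a2, -0.22 for Col4a3, 0.039 for Col4a4 and 0.038 for Dcn). With 1 mouse left out the log2 fold changes of the 15 genes ranged from -0.12 to 0.065 for Bgn, -0.20 to 0.12 for Col1a2, -0.19 to 0.15 for Col3a1, -0.061 to 0.070 for Col4a1, -0.061 to 0.065 for Col4a2, -0.082 to 0.19 for Col4a3, -0.080 to 0.044 for Col4a4, -0.080 to 0.11 for Col4a5, -0.22 to 0.17 for Dcn, -0.12 to 0.16 for Fbn1, -0.086 to 0.11 for Fn1, -0.076 to 0.11 for Hspg2, -0.16 to 0.049 for Nid1, -0.14 to 0.077 for Tgfbi and -0.17 to 0.047 for Timp2. Genes read at few counts, such as Col6a6 and Col8a1, carry wide intervals, and 3′ tags do not show splicing or protein. No paired analysis was possible because the labels do not pair the mice.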

Other observations

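Collagen I is built from the products of Col1a1 and Col1a2, and the ratio of their 3′ tags differed by the run of library codes in Rragc+/+ kidneys. It was 1.46 and 1.47 in Rragc+/+ replicates 1 and 2, of the first run, and 0.906, 0.839 and 0.874 in replicates 3 to 5, of the second. In Rragc S74N/+ kidneys it was 1.31 in replicate 1, of the first run, and 1.176, 1.49, 1.37 and 1.91 in replicates 2 to 5, of the second. This was noticed after the values were seen and was not tested. Tags of Lamb1 outnumbered those of Lamb2 by 4.18 to 7.25 times in Rragc+/+ and by 3.53 to 7.39 times in Rragc S74N/+ kidneys.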
